A study of Saccharomyces cerevisiae and Schizosaccharomyces pombe with 10 samples.

Results

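SNR41, SNR70 and SNR51 lie in a row on the minus strand of chromosome XVI of budding yeast, and the reads of nascent RNA that overlap this row are described here. All minus-strand alignments that overlap the 543 nt from the annotated start of SNR41 to the annotated end of SNR51 were taken, and each was given to the gene it overlapped most. This gave 5625 of the 101128 alignments of the pool (5.56%, 95% Wilson interval 5.42 to 5.71) on 3 of the 76 snoRNA genes of the R64 annotation. The pool holds 2 replicates of Saccharomyces cerevisiae strain BY4741 (MATa leu2D0 met15D0 ura3D0), harvested in exponential growth in glucose medium at 30 °C. RNA held in the nascent fraction was ligated to an adaptor at its 3' end, copied to cDNA and read as long consensus reads on a Pacific Biosciences instrument. The replicates cannot be told apart in the alignments, so no spread between them can be given, no test was made, and intervals cover counting error only. The reads come from 5 sequencing movies, 1 later and 4 earlier, which are not treated as replicates. Whether the later and the earlier movies hold different replicates or libraries cannot be told from the alignments. The movies are given side by side because reads of the later movie were longer, with a median of 185 aligned nt, against 101 in the earlier movies.

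Box C/D small nucleolar RNAs (snoRNAs) guide the methylation of ribose groups in ribosomal RNA. Several yeast snoRNA genes are transcribed together into a long precursor, which the RNase III enzyme Rnt1 can cut between the snoRNAs. The 5' exonucleases Rat1 and Xrn1 and the nuclear exosome with Rrp6 then trim the pieces to the ends of the finished RNA. snR41 and snR70 guide methylation of 18S rRNA, and snR51 of 18S and 25S rRNA.

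In the R64 annotation SNR41 (YNCP0015C) spans chrXVI:719148-719242, SNR70 (YNCP0014C) chrXVI:718887-719050 and SNR51 (YNCP0013C) chrXVI:718700-718806, counted from 1. Transcription runs toward lower positions, so SNR41 comes first and SNR51 last. The annotated spacers are 97 nt between SNR41 and SNR70 and 80 nt between SNR70 and SNR51. The next genes on the map are ASR1, which codes for a RING-finger protein and ends 315 nt upstream of SNR41, and NVJ2, a gene of a protein of the junction between nucleus and vacuole, which begins 231 nt downstream of SNR51. Both are on the same strand as the snoRNAs, and neither had a read. No read (0) lay on the opposite strand of the cluster, and 0 of the 5625 alignments held a gap.

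Of all reads as deposited, SNR41 had the most and SNR51 the fewest. SNR41 had 2595 reads (exact Poisson interval 2496 to 2697), which is 2.57% of the pool, and ranked 9 among the 76 snoRNA genes. SNR70 had 2259 reads (2167 to 2354), or 2.23% of the pool, and SNR51 had 771 (718 to 827), or 0.762%. SNR70 and SNR51 ranked 15 and 33. The intervals of the 3 genes do not overlap. With identical alignments counted once, the order of SNR41 and SNR70 turned, with 122 alignments of SNR41 (0.977%, 0.819 to 1.17) and 155 of SNR70 (1.24%, 1.06 to 1.45), whose 95% intervals overlap, and SNR51 stayed last with 75. Per annotated length, the level was 2732 reads per 100 nt for SNR41, 1377 for SNR70 and 721 for SNR51, while the median of the 75 snoRNA genes with at least 50 reads was 448. Per annotated length the level was 1.98 times as high for SNR41 as for SNR70, and 1.91 times as high for SNR70 as for SNR51. The commonest SNR41 read was longer than the annotated gene, and per length of the commonest read the level of SNR41 was 2359 reads per 100 nt, 1.71 times that of SNR70. Finished and nascent molecules were not told apart in these counts, and more copies cannot be told apart from better capture of an RNA.

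The relation of the genes to each other was not the same in every movie. SNR41 had 871 reads in the later movie and 430, 390, 449 and 455 in the 4 earlier ones. SNR70 had 913 reads in the later movie and 348, 345, 329 and 324 in the earlier ones. SNR51 had 201 reads in the later movie and 157, 143, 124 and 146 in the earlier ones. SNR70, the longest of these RNAs, had fewer reads than SNR41 in each earlier movie, while in the later movie the difference was within counting error. Of the reads of SNR70 and SNR41 together, SNR70 held 51.2% in the later movie (48.9 to 53.5) and 43.8% in the earlier ones (42.1 to 45.6). As a share of the movies' alignments, SNR70 held 2.59% in the later movie and 2.04% in the earlier ones. SNR41 held 2.47% in the later movie and 2.62% in the earlier ones, and SNR51 0.570% in the later movie and 0.865% in the earlier ones. The part of read length in these differences was not tested, and that of replicate or library cannot be told apart from it.

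**Figure D1:**
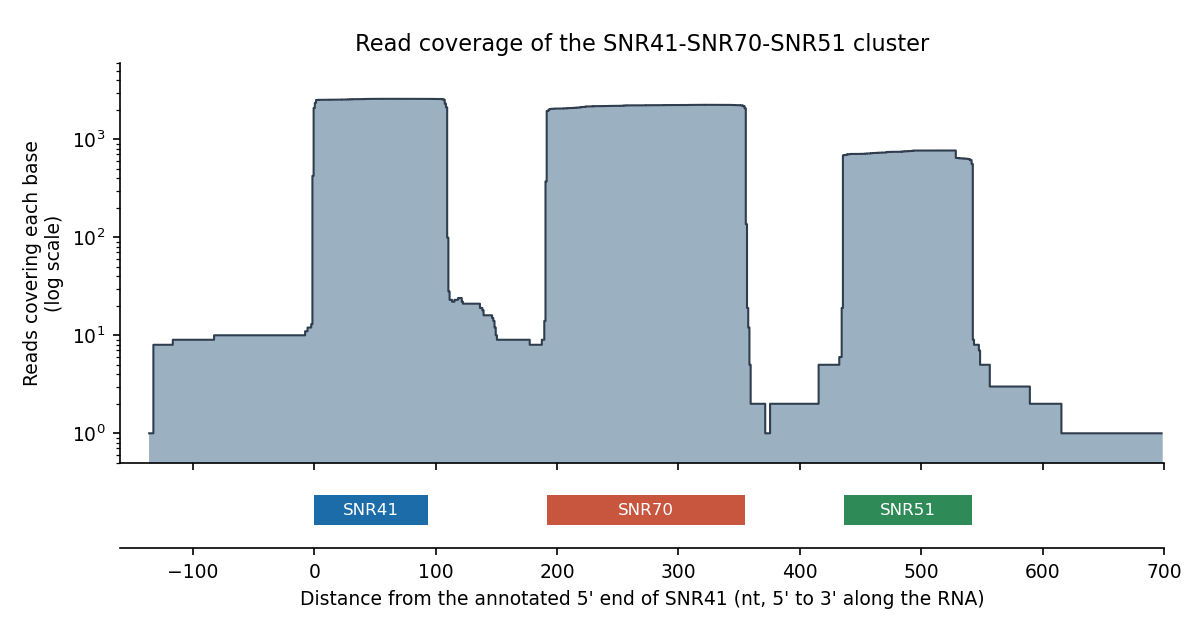
Number of reads that cover each base (log scale) against the distance from the annotated 5' end of SNR41, with the annotated snoRNAs as boxes below. Coverage is high on the snoRNAs, runs past the annotated end of SNR41, and drops to 8 reads in the spacer after SNR41 and to 1 read in the spacer after SNR70.

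The 3' ends of the 3 snoRNAs differed in kind: SNR70 ended where it is annotated, SNR41 ended well past its annotated end, and SNR51 had a second end inside the gene. Offsets from here on are counted in nt along the RNA, with positive values downstream of the annotated end. For SNR70, 1935 of 2259 reads (85.7%, 84.2 to 87.0) ended exactly at the annotated base, 117 at +1 and 100 at -1. Within 1 nt of the commonest end lay 95.3% of its reads (94.3 to 96.1). The median of the 75 snoRNA genes was 93.6%, with quartiles of 90.0% and 94.9%.

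For SNR41 the commonest 3' end lay at +15, position 719133, with 2019 of 2595 reads (77.8%, 76.2 to 79.4). Ends at +13, +14 and +16 held 230, 185 and 71 reads. Only 1 SNR41 read (0.0385%) ended within 1 nt of the annotated 3' end. The commonest SNR41 read therefore was 110 nt long, where the annotation has 95 nt. The end at +15 was the commonest in each of the 5 movies, with 77.8% of the reads in the later movie and 73.3% to 81.8% in the earlier ones. The end at +13 held 11.7% of the reads in the later movie (9.74 to 14.0) and 7.42% in the earlier ones (6.28 to 8.76), among which single movies ranged from 4.87% to 10%.

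For SNR51 the annotated 3' base was the commonest end, with 551 of 771 reads (71.5%, 68.2 to 74.5). A second end lay at -14, position 718714, with 123 reads (16.0%, 13.5 to 18.7), and 52 reads ended at -1. The bases from -13 to -3 held 22 reads in all, so the second end stands apart from the first. Of the 123 reads, 117 began at the annotated 5' base and were 93 nt long, against 107 nt for the full form. The share of reads that ended at least 10 nt before the commonest end was 17.3% for SNR51, 1.11% for SNR70 and 0.886% for SNR41. SNR51 ranked 2 among the 75 snoRNA genes in this share, whose median was 1.10% and whose highest value was 25.4%. Since the gene was picked with this spectrum in view, the rank is a description.

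The shorter SNR51 form was rarer in the later movie. It held 16 of 201 reads there (7.96%, 4.96 to 12.5), and 107 of 570 reads (18.8%, 15.8 to 22.2) in the earlier movies, in which it ranged from 17.1% to 21.0%. The later movie lay below each earlier one. The later movie also had the longer reads and fewer SNR51 reads per alignment. What read length adds to this difference was not tested, and that of replicate or library cannot be told apart from it. With identical alignments counted once, 5 distinct alignments ended at -14 and 38 at the annotated base.

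**Figure D2:**
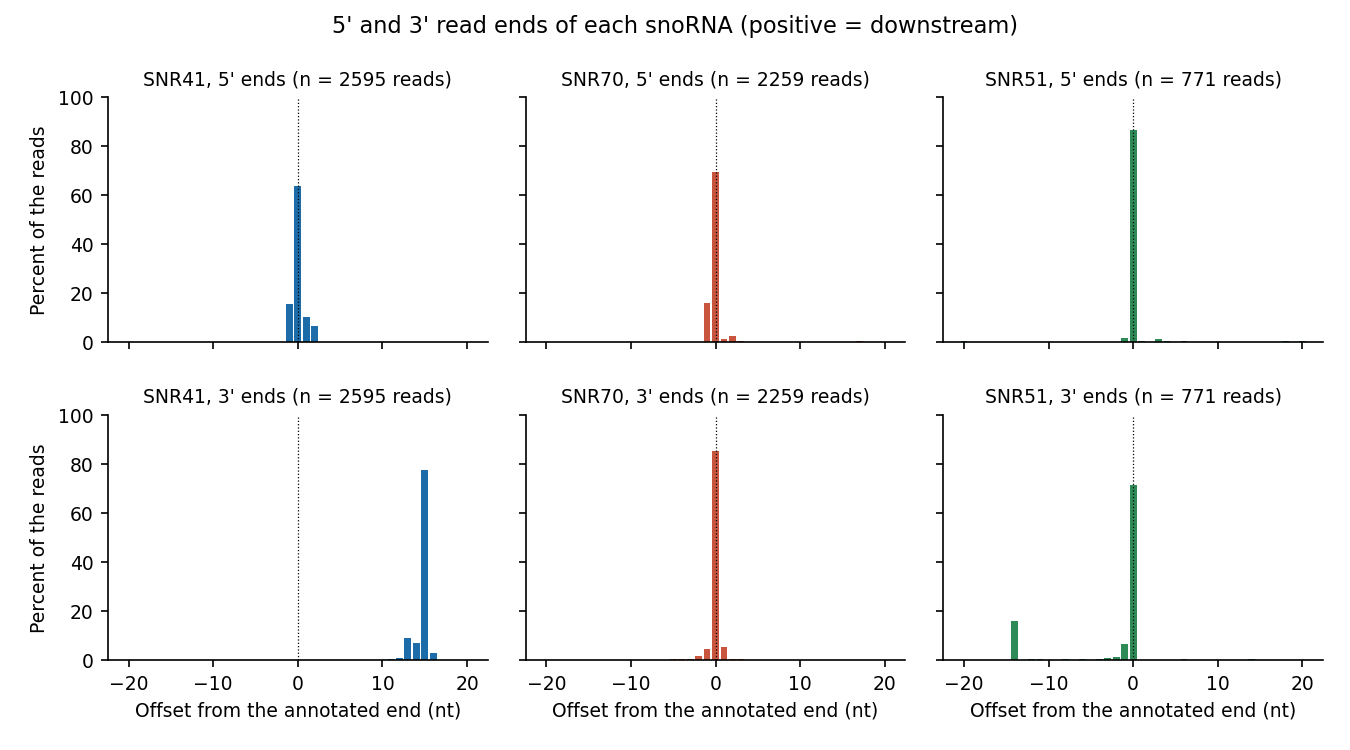
Percent of the reads of each snoRNA whose 5' end (upper row) or 3' end (lower row) lay at each offset from the annotated end, within 20 nt. The commonest 3' end is at +15 for SNR41 and at 0 for SNR70 and SNR51, and SNR51 has a second 3' peak at -14.

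**Figure D3:**
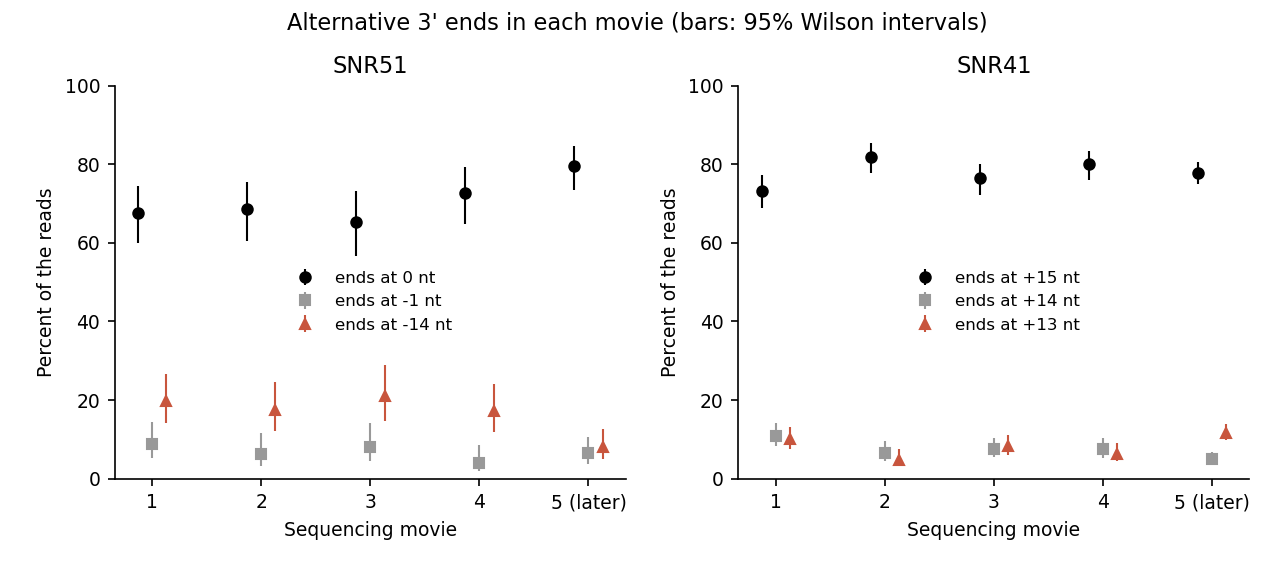
Percent of the SNR51 reads (left) and SNR41 reads (right) that ended at the named offsets in each of the 5 movies, with 95% Wilson intervals. The SNR51 end at -14 lies between 17.1% and 21.0% in the 4 earlier movies and at 7.96% in the later one.

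At the 5' side the commonest start was the annotated base in all 3 snoRNAs. SNR51 was the sharpest, with 667 of 771 reads at the annotated base (86.5%, 83.9 to 88.7). SNR70 had 1570 of 2259 reads there (69.5%, 67.6 to 71.4) and 357 at the base before it (15.8%). SNR41 had 1657 of 2595 reads there (63.9%, 62.0 to 65.7), 409 at the base before it (15.8%), 266 at +1 and 166 at +2. Within 1 nt of the commonest start lay 89.9% of SNR41 reads, 86.7% of SNR70 reads and 88.7% of SNR51 reads, against a median of 72.5% over the 75 snoRNA genes. The upper quartile was 88.4%, and SNR41, SNR70 and SNR51 ranked 14, 24 and 18, so such shares were not particular to this cluster. At the base before the annotated start, SNR51 had 13 reads (1.69%, 0.988 to 2.86), so its interval lies below those of SNR41 (14.4 to 17.2) and SNR70 (14.4 to 17.4).

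The mix of 5' ends of SNR41 differed between reads with different 3' ends. Among the 230 reads that ended at +13, 49 began at +2 (21.3%, 16.5 to 27.0), while 89 of the 2019 reads that ended at +15 did so (4.41%, 3.60 to 5.39). Starts at -1 ran the other way, with 15 of the 230 reads that ended at +13 (6.52%, 3.99 to 10.5) and 350 of the 2019 that ended at +15 (17.3%, 15.7 to 19.0). Starts at +1 were also fewer among the reads that ended at +13, with 11 of 230 (4.78%, 2.69 to 8.36), against 228 of 2019 (11.3%, 9.99 to 12.7) of those that ended at +15. The share of starts at +2 was 25.5% of 102 reads that ended at +13 and 5.01% of 678 that ended at +15 in the later movie. In the earlier movies it was 18.0% of 128 and 4.10% of 1341. Starts at +2 were thus more common with the end at +13 in both sets of movies. Starts at +1, compared in the whole pool only, were not. The ends compared here were picked after their values were seen. Copies made in PCR could not be removed and may have changed these counts, which was not tested.

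Reads with both ends within 3 nt of the commonest ends were 94.3% of SNR41 reads (93.3 to 95.1), 88.4% of SNR70 reads (87.0 to 89.7) and 71.6% of SNR51 reads (68.3 to 74.7). SNR41 ranked 3, SNR70 23 and SNR51 41 among the 75 snoRNA genes, whose median was 74.8%. The remainder of the SNR70 reads was mostly short at the 5' side: 201 reads (8.90%) began at least 10 nt inside the gene, at 60 different bases, and in 185 of them the 3' end was the commonest one or a base beside it. The commonest of these inner starts lay at +32 with 24 reads and at +28 with 18. SNR41 had 71 such reads (2.74%) and SNR51 64 (8.30%). In SNR41 these were 6 of 871 reads in the later movie (0.689%) and 65 of 1724 in the earlier ones (3.77%). In SNR51 they were 2 of 201 reads (0.995%) in the later movie and 62 of 570 (10.9%) in the earlier ones. For SNR70 the shares were 8.11% in the later movie and 9.44% in the earlier ones.

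**Figure D4:**
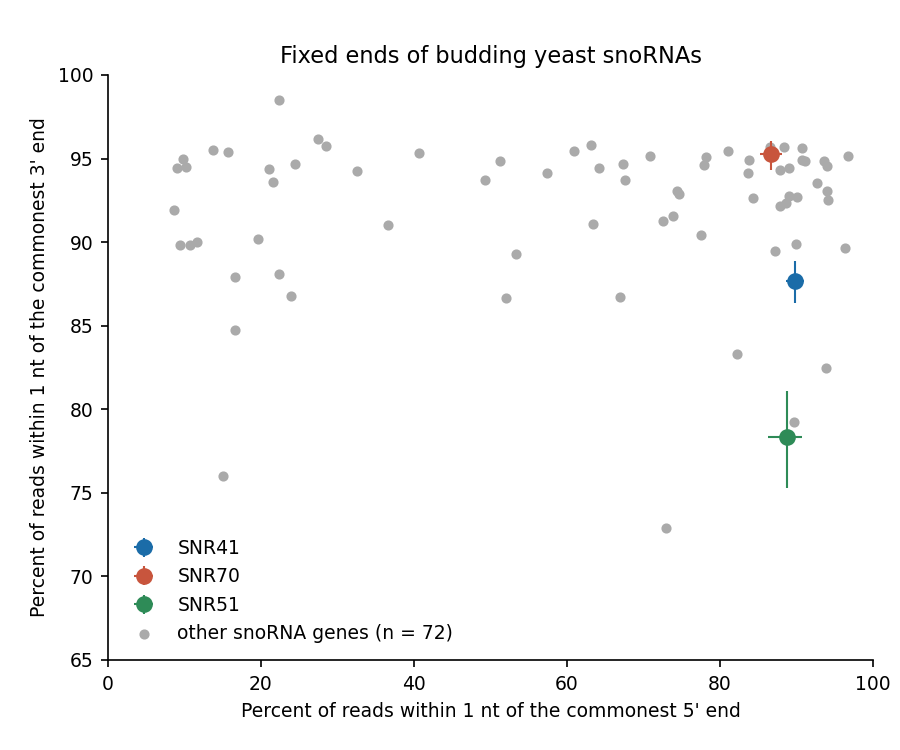
Share of reads (percent) at the commonest 3' end, give or take 1 nt, plotted against the same share at the 5' end for the 3 snoRNAs (coloured, with 95% Wilson intervals) and the 72 other snoRNA genes with at least 50 reads (grey). The vertical axis starts at 65%. SNR70 lies high at 95.3%, SNR41 at 87.7% and SNR51 low at 78.3% at the 3' end, while all 3 lie between 86.7% and 89.9% at the 5' end.

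The snoRNA genes nearest to each member in these 2 shares, over 1 pool of reads, were SNR60, SNR191 and SNR73 for SNR41, at distances of 2.24, 3.26 and 4.85 percentage points. For SNR70 they were SNR66, SNR52 and SNR48, at 0.491, 1.51 and 1.65 points. For SNR51 they were SNR72, SNR40 and SNR78, at 1.34, 6.62 and 8.19 points. The nearness holds for these 2 shares only. Reads that ended at least 10 nt before the commonest 3' end were 0.394% in SNR72, 1.07% in SNR40 and 0.667% in SNR78, against 17.3% in SNR51.

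Few reads reached beyond the snoRNAs. In all, 42 of the 5625 reads (0.747%, 0.553 to 1.01) extended at least 10 nt past the commonest end on either side. The share was 23 of 1985 reads in the later movie (1.16%, 0.773 to 1.73) and 19 of 3640 in the earlier ones (0.522%, 0.334 to 0.814). Long alignments were rarer in the earlier movies altogether. From the start of SNR41 to the end of SNR70 is 356 nt, and 4.27% of all alignments in the later movie spanned at least this. In the earlier movies 1.13% did so. The span was counted on the chromosome with gaps included, so an alignment with a gap counts as longer than its aligned bases.

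Upstream of SNR41, 10 reads began at least 10 nt before the annotated start, and 7 of these began at the same base, 132 nt upstream (position 719374). They had 7 different 3' ends, 3 came from the later movie and 4 from the earlier ones, so they are not copies of the same alignment. Between this base and the annotated end of ASR1 lie 183 nt. The other leader reads began 136, 116 and 82 nt upstream, and no read of the cluster began farther than 136 nt upstream. Of the 7 reads, 4 ended inside SNR41, at -28, -29, -44 and -46. A further 2 ended at +17 and +19, close to the commonest SNR41 end, and 1 ran on through SNR70. A further 8 SNR41 reads ended at -27, next to 2 of the leader reads, and all 8 began within 2 nt of the annotated start. Of these, 1 came from the later movie and 7 from the earlier ones. These positions were picked after their values were seen.

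In the spacer after SNR41, 16 reads that had been given to SNR41 ended at least 10 nt past its commonest 3' end, between +27 and +83 of the annotated end. All 16 began within 2 nt of the annotated 5' end, so these molecules paired the usual 5' end with an extended 3' end. The ends were not spread evenly, as 12 of the 16 lay between +42 and +56 and a further 3 at +27 or +28. They stood in 9 reads of the later movie and 7 of the earlier ones, and 14 of the 16 alignments were different. The range from +42 to +56 was picked after the ends were seen. The spacer up to the SNR70 start, taken from the commonest ends, is 82 nt long.

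SNR70 and SNR51 had fewer extended reads. At SNR70, 2 reads had their 5' end in the spacer, 76 and 73 nt before the SNR70 start (positions 719126 and 719123). Between these positions and the commonest SNR41 end lay 6 and 9 nt. Both ended within 1 nt of the SNR70 end. Past the SNR70 3' end, 2 reads (0.0885%, 0.0243 to 0.322) ran on by at least 10 nt, of which 1 ended 16 nt into the spacer. At SNR51, 3 reads began 20 nt and 1 read 60 nt before the annotated start. Past the SNR51 3' end, 5 reads (0.649%, 0.277 to 1.51) ran on by at least 10 nt. The farthest ended 156 nt downstream (position 718544), with 75 nt between it and the start of NVJ2. The share past the commonest 3' end was 0.617% for SNR41 (0.380 to 0.999), so its interval lies above that of SNR70, while the interval of SNR51 overlaps both. A further 6 reads ran from SNR41 into SNR70, but they were given to SNR70 and are not in the SNR41 share. The median over the 75 snoRNA genes was 0.314%.

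**Figure D5:**
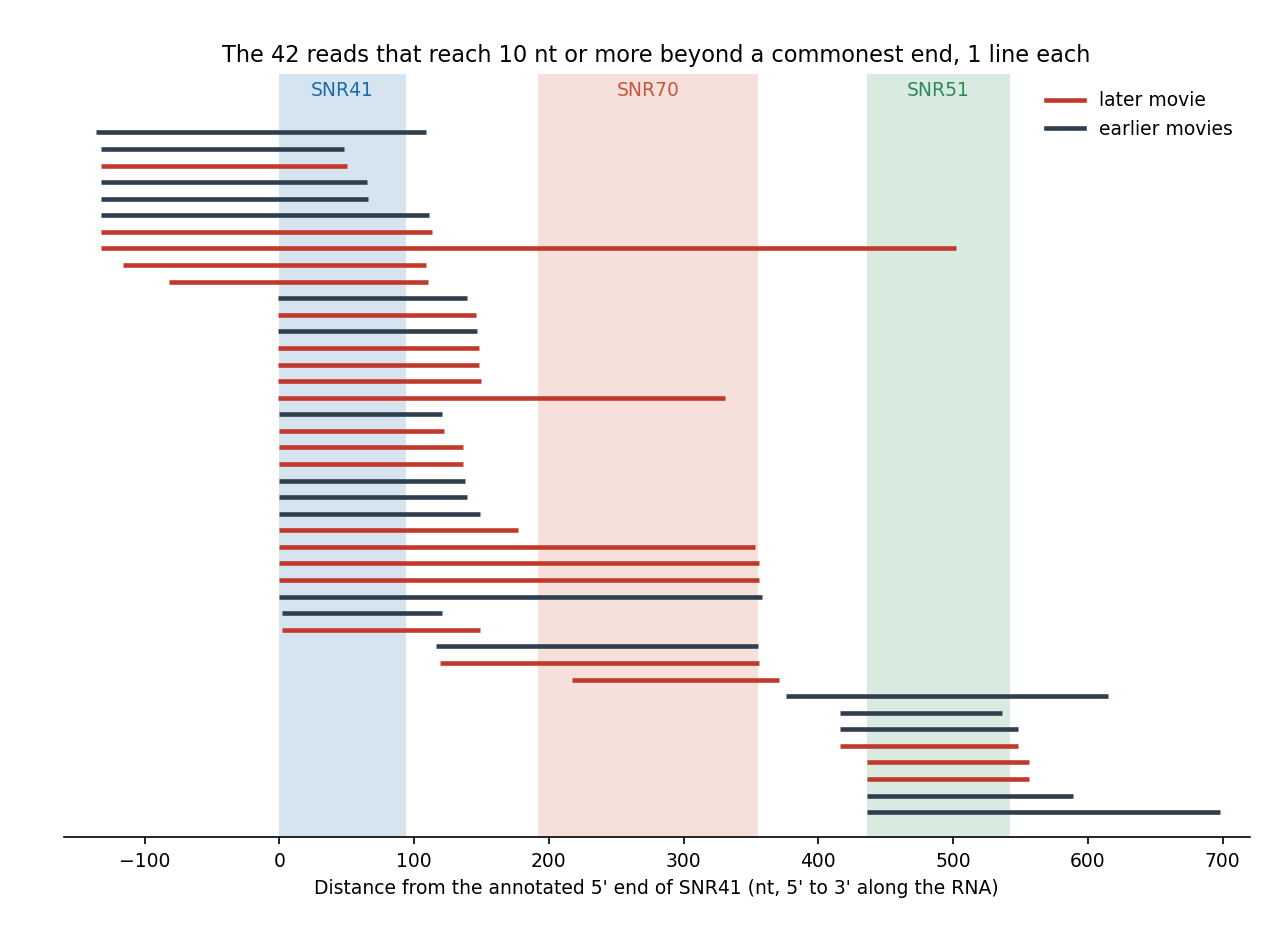
The 42 reads that extend at least 10 nt past a commonest end, each drawn as a line against the distance from the annotated 5' end of SNR41, with the annotated genes shaded. The 7 reads that share a start 132 nt upstream, the reads that end between +42 and +56 after SNR41, and the 5 reads that run from the start of SNR41 into SNR70 can be seen as separate groups.

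Within the spacers, defined by the annotated ends, at least 10 nt were covered by 2574 reads after SNR41 (45.8%) and by 6 reads after SNR70 (0.107%). The first of these counts consists mostly of the SNR41 reads that end at +13 to +16, inside the annotated spacer. Between the commonest ends, a choice made after the data were seen, 24 reads (0.427%, 0.287 to 0.634) covered at least 10 nt of the spacer after SNR41 and 6 (0.107%, 0.0489 to 0.233) of the spacer after SNR70. The intervals do not overlap. Coverage fell to 8 reads at the lowest base of the spacer after SNR41 and to 1 read in the other spacer. No read (0 of 5625, which allows a share of up to 0.0533%) lay wholly inside a spacer.

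Joint molecules, which hold at least 10 nt of more than 1 snoRNA, numbered 6 of 5625 reads (0.107%, 0.0489 to 0.233), 5 in the later movie and 1 in the earlier ones. The 6 reads stood in 5 different alignments, as the 2 that ended at +1 of the SNR70 end were identical. Among reads with 1 alignment only, 5 joint reads remained. Of all 6 joint reads, 5 joined SNR41 to SNR70 only, and these 5 began within 1 nt of the annotated SNR41 start. Their 3' ends lay at +1, +1, +3, -2 and -24 of the SNR70 end, so 4 of the 5 had the usual 5' end of SNR41 and the usual 3' end of SNR70, within 3 nt, with the spacer between them. These reads were 333 to 359 nt long. The sixth joint read was 635 nt long, the longest of the cluster. It began at the shared base 132 nt upstream of SNR41, ran through SNR41, SNR70 and both spacers, and ended 67 nt into SNR51. No read (0) joined SNR70 to SNR51 without SNR41. A count of 0 allows up to 0.0533%. From the start of SNR70 to the end of SNR51 is 351 nt, and 2.27% of the alignments in the pool spanned at least this, gaps included.

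Joint reads were few in the other snoRNA clusters of the pool too. The pair SNR190-SNR128 had 6 joint reads of 15047 (0.0399%, 0.0183 to 0.0870). SNR57-SNR55-SNR61 had 3 of 3668 (0.0818%, 0.0278 to 0.240), of which 1 held a gap. Overlap with a gene was counted from the start to the end of an alignment, gaps included. The pair SNR67-SNR53, whose spacer is 265 nt long, had 0 of 850, which allows a share of up to 0.353%. The cluster of 7 genes from SNR78 to SNR72 had 23 of 8213 (0.280%, 0.187 to 0.420), of which 5 held a gap. These intervals overlap that of SNR41-SNR70-SNR51. In the later movie the share was 0.252% for SNR41-SNR70-SNR51 (0.108 to 0.588) and 1.44% for SNR78 to SNR72 (0.898 to 2.29), and these 2 intervals do not overlap. In the earlier movies the shares were 0.0275% (0.00485 to 0.155) and 0.0854% (0.0391 to 0.186). A cluster of 7 genes offers more joints than one of 3, and no test of these differences was made.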

How the data were processed

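Nascent RNA of 2 S. cerevisiae replicates was read as long cDNA, and both replicates stand in 1 deposited file. The deposited file holds 1 line per alignment. The other samples of the series were not analysed here. Per the submitters' processing notes, cutadapt 1.8 was used and the build was sacCer3 (the aligner: not given in the sources used here). A deposited score, the same in every line, was not used. Deposited starts, counted from 0, were turned into positions counted from 1. The pool held 101128 alignments of 100834 reads, and each alignment was counted. PCR copies were not removed, since the adaptor's random bases are not in the alignments. Identical alignments counted once left 352 in the cluster (6.26%), but finished snoRNAs share their ends, so identical alignments need not be copies.

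Genes came from the RefSeq table of assembly R64, which shares chromosome positions with sacCer3. A read belonged to the snoRNA it overlapped most, by at least 10 nt on its strand. Ends were compared with a tolerance of 1 nt, and 3 nt for both ends together. Shares have 95% Wilson intervals, counts exact Poisson intervals (Python 3.11.15, scipy 1.17.1), and a zero count was taken to allow up to 3 counts. With 1 pool there was no test. The code was tested on simulated reads. The genes, their spectra and the rules were chosen with earlier results of these data known. Named besides the members were genes of the other snoRNA clusters, the neighbours on the map, and the 3 snoRNA genes nearest in both end shares. Alternatives changed the overlap, the tolerance, the movies and the counting of identical alignments.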

Additional observations from a re-analysis of the deposited data

How the results depend on the processing

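The positions of the commonest 5' and 3' ends were the same base in all 24 values recomputed with identical alignments counted once, in either set of movies, or with reads of 1 alignment only. Of the 100 recomputed shares, which have a 95% interval, 49 stayed within the interval of the value reported. No paired analysis was possible because the alignments of both replicates stand together and carry no replicate name, and for the same reason leaving out each replicate was not run.

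Counting identical alignments once moved most shares, since it gives an end shared by many reads the weight of a few alignments. The shares of the pool became 0.977%, 1.24% and 0.601% for SNR41, SNR70 and SNR51. Ends within 1 nt became 51.6%, 62.6% and 61.3% at the 3' side and 41.8%, 25.8% and 32.0% at the 5' side, and both ends within 3 nt 21.3%, 14.2% and 14.7%. Ends past the commonest 3' end, by 10 nt or more, became 11.5%, 1.29% and 5.33%, spacer reads 31.0% and joint reads 1.42%.

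In the later movie alone, the pool share was 2.59% for SNR70 and 0.570% for SNR51. Ends within 1 nt were 84.7% for SNR41 and 86.1% for SNR51 at the 3' side and 94.0% for SNR51 at the 5' side. Both ends within 3 nt were 96.2% for SNR41 and 85.1% for SNR51, SNR41 ends past the commonest end 1.03%, spacer reads 44.0% and joint reads 0.252%. In the earlier movies, the pool share was 2.04% for SNR70 and 0.865% for SNR51, SNR41 3' ends within 1 nt 89.2%, both ends within 3 nt 93.3% for SNR41 and 66.8% for SNR51, joint reads 0.0275%, and SNR70 had 0 reads past its commonest 3' end. The cause of these differences was not tested.

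With ends exactly at the commonest base, the 3' shares were 77.8%, 85.7% and 71.5% for SNR41, SNR70 and SNR51, and the 5' shares 63.9% and 69.5% for SNR41 and SNR70. Within 3 nt, they were 97.6% and 97.9% at the 3' side and 96.5% and 89.9% at the 5' side for SNR41 and SNR70. Both ends within 1 nt held 80.2% of SNR41 and 83.2% of SNR70 reads. Spacer reads were 54.5% with at least 1 nt and 0.498% with at least 20 nt, since the SNR41 tail in the annotated spacer is shorter than that. Between the commonest ends, chosen after seeing the data, they were 0.516%, and there 7.10% with identical alignments counted once, 0.856% in the later movie and 0.330% in the earlier ones. Depth limits the joint molecules, which rest on 6 reads. It also limits the reads past the 3' ends of SNR70 and SNR51, which number 2 and 5 with the 10 nt limit.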
